A study of Mus musculus with 3 samples.

Results

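The 10 genes described here are the integrin alpha chain genes Itgae, Itga4, Itgal, Itgav and Itga6, the integrin beta chain genes Itgb7, Itgb1, Itgb2 and Itgb3, and Selplg, which encodes the selectin ligand PSGL-1. They were taken by gene name from tables of expression per gene and per transcript, which gave 10 of 55536 genes and 52 transcripts. The messenger RNA came from regulatory T cells (Tregs), the CD4 T cells defined by the transcription factor Foxp3 that hold other immune cells in check. Every library came from primary Tregs of a male mouse aged 6 months of the strain Foxp3CreERT2 x Rosa26YFP, in which Foxp3 drives a tamoxifen-dependent Cre recombinase that can switch on a yellow fluorescent reporter, and the labels call the cells inflammation-experienced. There was 1 group, with 1 biological replicate measured in 3 technical replicates, here called libraries 1, 2 and 3. No control or resting Tregs were analysed here, so the comparisons are between partner chains within a library and between libraries of the same material. Where in the protocol the technical replicates were split is not given in the labels, and the p-values below measure the spread between these libraries and not between animals.

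Integrins are adhesion receptors made of 1 alpha and 1 beta chain, which pair inside the cell before they reach its surface. A chain without a partner is largely kept inside, and a beta chain can be shared by several alpha chains. On T cells, αEβ7 (also called CD103) binds E-cadherin on epithelia, α4β7 binds MAdCAM-1 on vessels of the gut, α4β1 binds VCAM-1 and fibronectin, and αLβ2 (LFA-1) binds the ICAM family. The αv chain pairs with several beta chains and binds matrix proteins and latent TGF-β, and α6β1 binds laminins. PSGL-1 is a mucin-like protein that binds P-selectin once it carries the right sugars and sulphated tyrosines, and it supports rolling on vessel walls.

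The short tails inside the cell are where integrins are switched on, so the coding sequences of the tails are given for the chains measured. Talin and kindlin, the proteins that bring an integrin into its active form, bind beta tails at NPxY or NPxF motifs. The last 150 coding bases before the stop codon of the main coding transcript are shown 5′ to 3′ in reading frame, from GENCODE M21 transcripts on mm10, with the codons of each NPxY or NPxF motif in capitals.
Itgb7: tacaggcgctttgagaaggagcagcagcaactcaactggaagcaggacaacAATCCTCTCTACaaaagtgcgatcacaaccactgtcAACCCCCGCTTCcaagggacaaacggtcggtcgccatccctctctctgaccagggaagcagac
Itgb1: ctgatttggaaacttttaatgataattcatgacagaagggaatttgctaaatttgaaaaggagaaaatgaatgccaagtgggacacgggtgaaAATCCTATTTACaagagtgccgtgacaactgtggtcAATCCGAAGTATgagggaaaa
Itgb2: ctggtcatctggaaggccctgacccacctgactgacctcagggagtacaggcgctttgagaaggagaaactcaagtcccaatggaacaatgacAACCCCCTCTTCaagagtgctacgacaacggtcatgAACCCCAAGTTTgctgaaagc
Itgb3: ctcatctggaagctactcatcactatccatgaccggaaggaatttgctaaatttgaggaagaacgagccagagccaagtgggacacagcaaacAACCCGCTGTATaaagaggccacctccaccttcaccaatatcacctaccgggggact
Itgb7, Itgb1 and Itgb2 each held 2 such motifs and Itgb3 held 1, since the second site of the β3 tail is spelled with other residues. Read in frame on the coding strand, at least 1 motif was found in the same window of 199 of 21549 genes with a complete coding transcript (0.923%), and 2 or more in 6 genes, of which 3 were the integrin genes Itgb7, Itgb1 and Itgb2. The motif is a match of letters and was not measured as a binding site.

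Alpha tails begin with a conserved GFFKR motif next to the membrane, which contacts the beta chain and holds the receptor in its resting form. The coding bases from that motif (capitals) to the base before the stop codon are shown from the same source.
Itgae: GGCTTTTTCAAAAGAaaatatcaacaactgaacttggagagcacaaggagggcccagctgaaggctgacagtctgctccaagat
Itga4: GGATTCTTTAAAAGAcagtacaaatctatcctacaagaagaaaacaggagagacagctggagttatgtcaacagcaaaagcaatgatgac
Itgal: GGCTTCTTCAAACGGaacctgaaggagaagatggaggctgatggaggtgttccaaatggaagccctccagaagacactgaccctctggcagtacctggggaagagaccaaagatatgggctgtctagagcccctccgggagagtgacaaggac
Itgav: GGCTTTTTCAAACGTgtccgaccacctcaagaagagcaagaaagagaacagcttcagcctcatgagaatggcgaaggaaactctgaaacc
Itga6: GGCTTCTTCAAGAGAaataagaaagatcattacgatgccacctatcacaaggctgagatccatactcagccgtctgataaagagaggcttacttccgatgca
All 5 alpha genes carried the motif, in differing codons. The Itgal stretch was the longest of the 5 shown, with 153 bases, and that of Itgae the shortest, with 84. Within the last 180 coding bases the motif was found in 13 of 21549 genes (0.0603%), and all 13 were integrin alpha genes.

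Estimated counts summed over genes to 11829501 in library 1, 14136139 in library 2 and 10667765 in library 3. Levels are given as TPM (transcript abundance per length, scaled to a fixed total in each library). All 9 genes of the Treg marker list, among them Foxp3, Ctla4 and Il2ra, were at 1 TPM or more in every library. The list summed to 7060, 6793 and 7392 TPM in libraries 1, 2 and 3. It includes genes shared with other T cells, with means of 2910 TPM for Trac, 1481 for Cd3g, 1119 for Cd3e and 379 for Cd4. Foxp3 averaged 16.1 TPM. The sum of the list therefore cannot tell Tregs from other T cells. Markers of other cells were unequal between the libraries. The 8 B cell markers summed to 462, 709 and 893 TPM, the 10 myeloid markers to 5.33, 64.9 and 24.2 TPM, the 6 NK cell markers to 10.3, 46.2 and 15.7 TPM and the 6 erythroid markers to 4.83, 51.2 and 286 TPM in libraries 1, 2 and 3. The 8 platelet and megakaryocyte markers summed to at most 1.82 TPM, with Treml1 at 0 in all 3 libraries. The 9 stromal, endothelial and epithelial markers summed to between 5.72 and 8.20 TPM, with Col3a1 at 0 in all 3. In such bulk samples, fewer cells of a type and less RNA per cell cannot be told apart.

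All 10 genes were expressed, over a range of levels from Selplg at 451 ± 55.3 TPM down to Itgb3 at 15.9 ± 2.79 TPM (SD, n = 3 libraries, here and below). TPM is a level per transcript length, so that genes can be set against each other. The order by mean was Selplg, Itgb7, Itgb2, Itgb1, Itga4, Itgal, Itgav, Itgae, Itga6 and Itgb3. Of the 9 neighbouring pairs in that order, 4 had values that did not overlap between the genes, namely Itgb2 above Itgb1, Itgal above Itgav, Itgav above Itgae and Itgae above Itga6. The other 5 pairs of neighbours overlapped, so Selplg, Itgb7 and Itgb2 had no order beyond their spread, and neither had Itga6 and Itgb3. Selplg ranked at 332 and Itgb3 at 6153 among the 12470 genes at 1 TPM or more in every library.

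**Figure D1:**
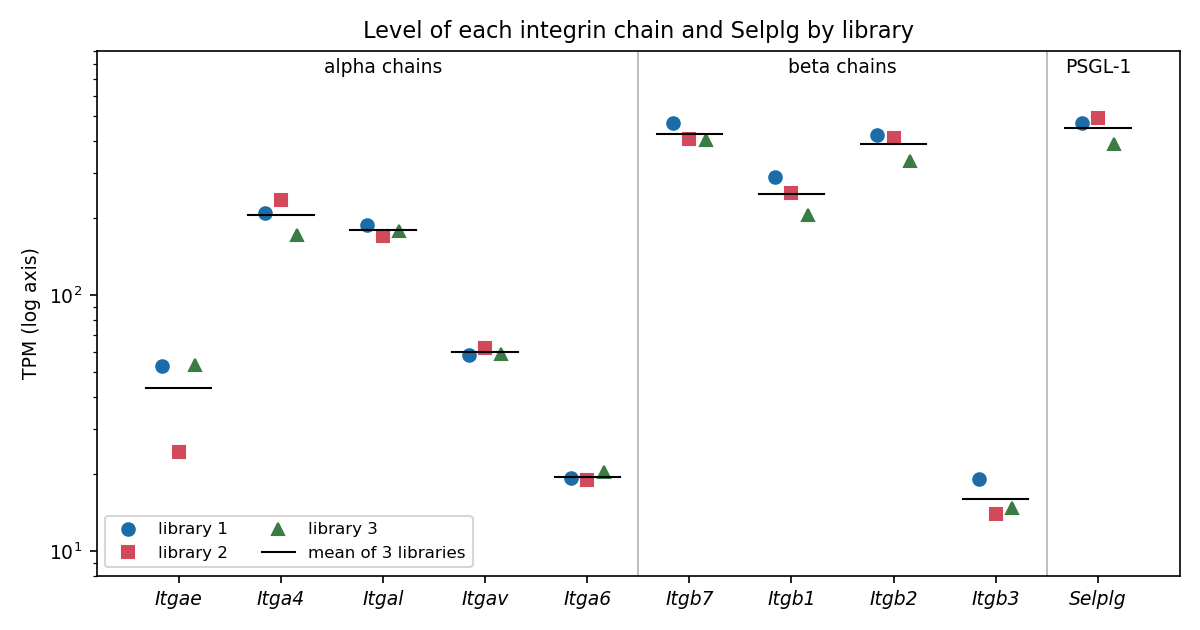
Level of each gene in TPM on a log axis, with 1 point per library and a line at the mean of 3 libraries. The alpha chains lie between 19.0 TPM (Itga6) and 235 TPM (Itga4), and 3 of the 4 beta chains lie at 205 TPM or above, with Itgb3 between 13.95 and 19.1 TPM.

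Itgae (chr11:73090583-73147446, + strand, mm10, as for all genes here), the chain that makes αEβ7 and marks tissue-dwelling T cells, had 52.5, 24.4 and 53.3 TPM in libraries 1, 2 and 3. Library 2 stood well below the other two, which were nearly equal. The estimated counts behind these values were 1804, 1013 and 1679. Between the highest and the lowest library the difference was 2.09-fold after normalisation for depth, the largest of the 10 genes, where the median over all tested genes was 1.26. A chi-square test of homogeneity on the counts, in which counting noise alone gives a chi-square per degree of freedom of about 1, gave 222 (Benjamini-Hochberg adjusted p = 1.02e-94). Without library 2 the call was lost (adjusted p = 0.949), and no difference between libraries 1 and 3 was detectable at this depth. Library 2 had the highest summed myeloid and NK cell markers and library 1 the lowest, while libraries 1 and 3 had nearly equal Itgae. The NK cell sum in library 2 came mostly from Prf1 (25.2 TPM), Tyrobp (11.9 TPM, also in the myeloid list) and Eomes (8.63 TPM). Ncr1 was instead highest in library 1 (0.47 TPM), and Klrb1c and Klra8 were highest in library 3 (1.67 and 0.41 TPM). The part of myeloid or NK cells in the Itgae difference was not tested. CD8 T cells and some dendritic cells can also carry αEβ7: the 2 CD8 T cell markers summed to 5.88, 12.4 and 15.2 TPM and the 7 dendritic cell markers to 6.78, 8.19 and 6.81 TPM in libraries 1, 2 and 3, and their part in the difference was not tested. The span of Itgae overlaps that of Haspin, which encodes a histone kinase, on the other strand. Whether their exons share bases was not examined. Without a stated strand setting, reads from any shared bases could not be told apart.

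Itga4 (chr2:79255426-79333123, + strand), the shared alpha chain of α4β7 and α4β1, had 209, 235 and 172 TPM in libraries 1, 2 and 3. It was highest in library 2 and lowest in library 3, so its order differed from that of Itgae. With 8675, 12463 and 6801 estimated counts, its chi-square per degree of freedom of 331 was the largest of the 10 genes (adjusted p = 7.63e-142), for a 1.46-fold difference between the highest and the lowest library. Its span overlaps that of Cerkl, a ceramide kinase-like gene on the other strand, and the same limit holds for any shared bases.

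Itgal (chr7:127296260-127335138, + strand), the alpha chain of LFA-1, had 188, 170.4 and 179 TPM in libraries 1, 2 and 3. These values lay close together, and the difference of 1.09-fold was called (chi-square per degree of freedom 16.9, adjusted p = 4.18e-07) on 8214, 8997 and 7026 estimated counts. Without library 1 it was no longer called (adjusted p = 0.596).

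Itgav (chr2:83724397-83806916, + strand) and Itga6 (chr2:71745616-71858416, + strand) were the 2 genes that were not called. Itgav had 58.4, 62.0 and 58.8 TPM and Itga6 had 19.2, 19.0 and 20.4 TPM in libraries 1, 2 and 3. Their libraries differed by 1.07-fold for Itgav (adjusted p = 0.445) and by 1.02-fold for Itga6 (adjusted p = 0.971) in normalised counts. They rest on fewer reads than most of the other members, with 783, 898 and 767 estimated counts for Itgav and 529, 631 and 499 for Itga6. The spans of both overlap predicted or pseudogene loci, 2 for Itgav and 4 for Itga6, and counts from any shared exon bases could be split with those.

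Among the beta chains, Itgb7 (chr15:102215995-102231944, - strand) had 470.6, 408 and 403 TPM in libraries 1, 2 and 3, and was highest in library 1. Itgb2 (chr10:77530252-77565708, + strand), the beta chain of LFA-1, had 423, 411 and 335 TPM, with library 3 apart from the other two. Itgb1 (chr8:128685654-128733200, + strand), the most widely shared of the beta chains, had 288, 250.2 and 205 TPM, a 1.42-fold difference in normalised counts between libraries 1 and 3 (chi-square per degree of freedom 242, adjusted p = 3.28e-103). Itgb3 (chr11:104608000-104670476, + strand), which pairs with αv and, on platelets, with another alpha chain, had 19.1, 13.95 and 14.7 TPM, and library 1 stood above the others. All 4 beta chains were called and all 4 were highest in library 1, against 14.0% of all tested genes, or 30.7% of all called genes, that were called and highest in library 1. The call was lost for Itgb2 without library 3 (adjusted p = 0.321) and for Itgb3 without library 1 (adjusted p = 0.823). Platelet markers were near 0 in every library where Itgb3 was measured, as given above.

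Selplg (chr5:113818536-113832644, - strand) had 470.3, 493 and 388 TPM in libraries 1, 2 and 3. Libraries 1 and 2 lay above library 3, by up to 1.29-fold in normalised counts (chi-square per degree of freedom 111, adjusted p = 3.36e-47). In the deposited whole-number counts, made separately on an older annotation, Selplg had 1874, 2045 and 1660 counts and was not called (adjusted p = 0.361).

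In all, 8 of the 10 genes differed between libraries beyond counting noise, where 6388 of 13970 tested genes, or 45.7%, did so. The members are abundant, and abundant genes are called more often. Of the 4378 genes with at least as many counts as the lowest member 63.7% were called, and of the 235 genes with at least as many as the median member 93.2%, and 8 of 10 lies between these shares. The sizes of the differences were modest, with a median of 1.30-fold over the 10 genes and 1.26-fold over all tested genes, though the median over those 235 genes was 1.13-fold. Of the 8 called members, 6 were lowest in library 3, where 42.5% of all called genes (19.5% of all tested genes) were lowest, and 2 (Itgae and Itgb3) were lowest in library 2, where 27.8% of all called genes (12.7% of all tested genes) were lowest. These orders held with DESeq2 size factors, but Itgal was lowest in library 2 when scaled by total counts, Itgb7 and Selplg were lowest in library 2 in the whole-number counts, and Itgb3 was lowest in library 3 in the whole-number counts and with no filter on low counts.

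**Figure D2:**
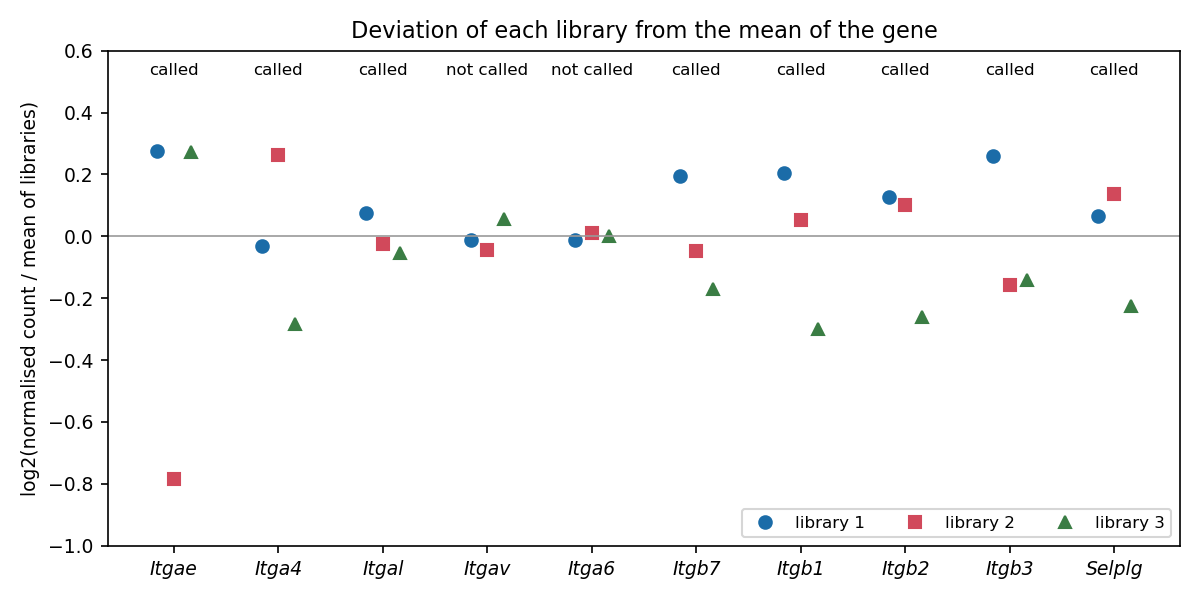
Deviation of each library from the mean of the gene, as log2 of the depth-normalised estimated count over its mean, with 1 point per library. Itgae in library 2 is the farthest from its gene's mean, Itgav and Itga6 lie near 0 in all 3 libraries, and library 1 is the highest point for all 4 beta chains.

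The partner chains were then compared within each library, as alpha minus beta on the log2(TPM + 0.1) scale, for 8 known alpha and beta pairs. Counting a pair only where this held in all 3 libraries, the alpha chain was the lower one in 6 of the 8. By the same rule it was lower in 4 of the 8 in CPM (counts scaled to library size, with no length adjustment). It was lower in 7 of the 8 on complete coding transcripts and in the whole-number counts. With 3 libraries the exact two-sided sign-flip permutation test cannot give a p below 0.25, and all 8 pairs, and 2 further pairs of chains that share a partner, had p = 0.25 and an adjusted p = 0.25 over 10 pairs. Each pair had the same direction in 3 of 3 libraries.

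Itgae was at 0.112, 0.0599 and 0.132 of the Itgb7 level in libraries 1, 2 and 3, which is a difference of -3.38 ± 0.60 on the log2 scale. Library 2 had the widest gap. Itga4, the other partner of β7, was at 0.444, 0.576 and 0.426 of the Itgb7 level (-1.07 ± 0.24), but in CPM it was above Itgb7, at 0.45 ± 0.28. Set against each other, Itgae was below Itga4 in each library, by 3.98-fold, 9.62-fold and 3.22-fold in libraries 1, 2 and 3 (-2.31 ± 0.84). The messenger RNAs of both partners summed to 261, 259.7 and 225 TPM, against 470.6, 408 and 403 TPM for Itgb7. In TPM, Itgb7 thus exceeded the sum of its alpha chains by 1.80-fold, 1.57-fold and 1.79-fold. This did not hold in CPM, where Itga4 alone had 733, 882 and 638 against 622, 517 and 500 for Itgb7 in libraries 1, 2 and 3.

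Itga4 was nearly level with Itgb1, at 0.725, 0.940 and 0.836 of it in libraries 1, 2 and 3 (-0.27 ± 0.19, and 0.066 ± 0.22 in CPM). Itgav was at 0.203, 0.248 and 0.286 of the Itgb1 level (-2.04 ± 0.25), and Itga6 at 0.0666, 0.0759 and 0.0993 (-3.65 ± 0.29). The 3 alpha partners of β1 among the members summed to 286, 316 and 251 TPM, against 288, 250.2 and 205 TPM for Itgb1. In TPM of the whole gene, the ratio of Itgb1 to their sum was thus 1.01, 0.791 and 0.819. This near balance did not hold on complete coding transcripts, where Itga4, Itgav and Itga6 averaged 71.8, 8.04 and 5.59 TPM, against 247 TPM for Itgb1. Since α4 is shared by β1 and β7, these sums are not amounts of receptor. Between the beta chains that share α4, Itgb7 was above Itgb1 by 1.63-fold, 1.63-fold and 1.96-fold (0.80 ± 0.15), but not in CPM (-0.39 ± 0.12) or on complete coding transcripts (-0.030 ± 0.11).

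Itgal was at 0.444, 0.414 and 0.533 of the Itgb2 level in libraries 1, 2 and 3 (-1.12 ± 0.19). The other alpha partners of β2, Itgam, Itgax and Itgad, were each under 1 TPM in at least 1 library. Itgav was below Itgb1, as given above, but exceeded Itgb3 by 3.05-fold, 4.44-fold and 3.99-fold (1.91 ± 0.28). It also exceeded Itgb8, whose product with αv releases active TGF-β, by 3.97-fold, 5.11-fold and 3.42-fold (2.03 ± 0.29), at an Itgb8 level of 14.7, 12.1 and 17.2 TPM. Summed over the members, the 5 alpha chains had 527, 511 and 483 TPM and the 4 beta chains 1201, 1083 and 959 TPM. The position of Itgav above β3 turned round with the transcripts that were counted, as given next.

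**Figure D3:**
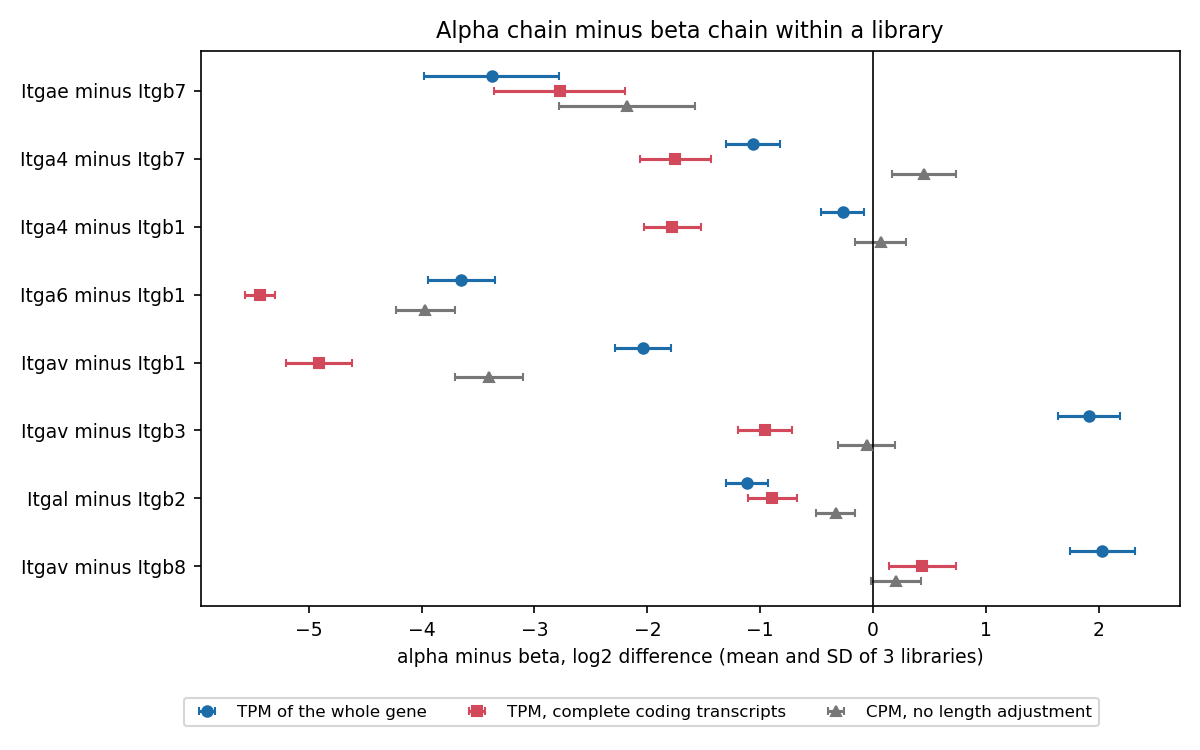
Alpha minus beta as a log2 difference (mean and SD of 3 libraries) for 8 pairs, on 3 scales: TPM of the whole gene, TPM of complete coding transcripts only, and CPM (counts scaled to library size) without a length adjustment. Itgae, Itga6 and Itgal stay below their beta partners on all 3 scales, and Itgav against Itgb3 lies at 1.91 on the first scale and -0.96 on the second.

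The transcript tables showed that much of the TPM of some alpha genes was not on coding transcripts. For Itga4, the coding transcript Itga4-201 took 33.0%, 36.4% and 35.3% of the gene's TPM in libraries 1, 2 and 3. The rest lay on 4 annotated non-coding transcripts, of which Itga4-203 averaged 33.7% ± 0.79, Itga4-205 17.3% ± 0.80 and Itga4-202 10.2% ± 0.24. In estimated counts, the coding transcript took 71.6% ± 1.52 of the gene, because it is 9767 bases long and TPM divides by length. The level of the coding transcript alone was 71.8 ± 12.7 TPM, against 205 ± 31.9 TPM for the gene.

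The Itgav level rested mostly on 1 short transcript. Itgav-205 is 463 bases in 3 exons at the 3′ end of the gene (chr2:83802921-83806916, + strand, mm10) and its coding sequence is annotated as incomplete. It took 73.0%, 79.2% and 69.2% of the TPM of Itgav in libraries 1, 2 and 3, from 160, 222 and 140 estimated counts. The long transcript Itgav-202, with 6788 bases in 28 exons, took 12.2%, 9.82% and 14.4% of the TPM from 436, 448 and 475 estimated counts. Complete coding transcripts of Itgav summed to 8.04 ± 0.48 TPM, against 59.7 ± 1.96 TPM for the gene. On complete coding transcripts, an alternative chosen after seeing the data, Itgav was below Itgb3 (-0.96 ± 0.24) in 3 of 3 libraries and remained above Itgb8 by 0.44 ± 0.29.

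For Itga6, the non-coding Itga6-203 took 56.8%, 61.9% and 59.7% of the TPM, and the coding Itga6-201 took 32.6%, 28.0% and 25.4%, in libraries 1, 2 and 3. A further non-coding transcript, Itga6-206, averaged 6.18% ± 1.41. The 2 complete coding transcripts differ at the tail: Itga6-201 includes an exon of 130 bases (chr2:71853534-71853663, + strand, exon 25 of 26, with 105 coding bases), which holds the GFFKR codons shown above, and Itga6-202 skips it and ends in another tail. The tables list Itga6-202 at 0 in all 3 libraries, with a deposited posterior SD of 16.2 to 24.1 reads. Itga6-203 also lacks the exon while it has exons on both sides, so that reads across the skipped junction can be assigned to it, and the shares of the 2 coding transcripts are not a measure of use of the exon.

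Itgal showed a shift between transcripts in the estimated shares. Itgal-201 took 33.7%, 44.6% and 49.1% of the TPM in libraries 1, 2 and 3, and Itgal-202 took 43.98%, 33.1% and 20.8%. By these estimates Itgal-202 led in library 1 and Itgal-201 in libraries 2 and 3, within the limits of read assignment given below. The pair have 2 ends for exon 18 of 31, at 127317366 and 127317363 on chromosome 7 (mm10, + strand). They also differ elsewhere, since Itgal-201 has the longer exon 18 but is 5195 bases long, against 5222 for Itgal-202. Their shares are therefore not a measure of the use of these 2 ends alone. At that junction they differ by 3 bases, which are in capitals below.
Itgal-201: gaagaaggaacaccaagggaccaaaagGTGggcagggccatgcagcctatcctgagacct
Itgal-202: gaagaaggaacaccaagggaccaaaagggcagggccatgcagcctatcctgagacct
The assignment of reads between them was uncertain. Itgal-202 had 3865, 3189 and 1597 estimated counts with posterior SDs of 431, 510 and 447 reads in libraries 1, 2 and 3. Itgal-201 had 2943, 4274 and 3743 estimated counts with posterior SDs of 447, 504 and 437 reads. In libraries 1 and 2 the gap between the 2 transcripts was not large beside these SDs, so which of them led there was not settled. For Itgal-202, the difference between libraries 1 and 3 was several times its SDs, but depth was not taken into account and no test was run. Itgal-203 averaged 23.8% ± 4.69.

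**Figure D4:**
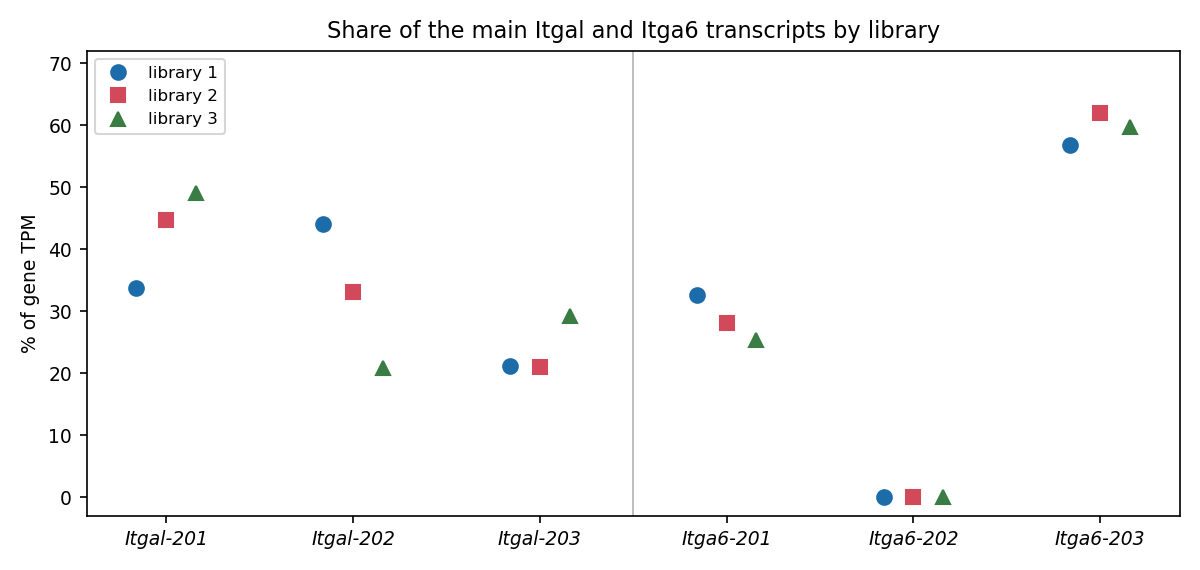
Share of the gene's TPM taken by the main Itgal and Itga6 transcripts, in percent, with 1 point per library. Itgal-201 and Itgal-202 change places in estimated share between library 1 and libraries 2 and 3, with uncertain read assignment, and Itga6-202 is at 0 in all 3.

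The beta chains and Selplg rested more on coding transcripts. Itgb1-201 took 99.5% ± 0.49 and Itgb3-201 99.7% ± 0.54 of the TPM. Itgb2-201 took 88.9%, 83.2% and 82.6%, and Itgb2-204, annotated as a target of nonsense-mediated decay, took 6.96%, 11.2% and 11.8%, in libraries 1, 2 and 3. Selplg-201 averaged 82.1% ± 2.10 and the partial Selplg-205 8.34% ± 2.15. Itgb7 was the exception among them, and Itgb7-201 averaged 56.2% ± 3.11. The 449-base retained-intron transcript Itgb7-204 took 24.8%, 31.4% and 32.7% in libraries 1, 2 and 3. The partial transcripts Itgb7-203 and Itgb7-202 averaged 7.33% ± 1.25 and 6.84% ± 1.54. In estimated counts, Itgb7-201 took 89.5% ± 1.22 of the gene and Itgb7-204 7.20% ± 1.30, because TPM divides by length. In Itgae, the coding Itgae-201 took 85.1% ± 1.77 and the retained-intron Itgae-202 the remaining 14.9% ± 1.77, and both were lowest in TPM in library 2.

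Counted on complete coding transcripts alone, the levels were 369 ± 37.7 TPM for Selplg, 331 ± 50.6 for Itgb2, 247 ± 40.2 for Itgb1, 241 ± 34.6 for Itgb7, 177 ± 8.57 for Itgal, 71.8 ± 12.7 for Itga4, 36.8 ± 13.5 for Itgae, 15.9 ± 2.84 for Itgb3, 8.04 ± 0.48 for Itgav and 5.59 ± 0.59 for Itga6. On this scale the alpha chain was lower in 7 of 8 pairs. Itga4 was then 1.75 ± 0.32 below Itgb7 and 1.78 ± 0.25 below Itgb1 on the log2 scale, and Itgb7 and Itgb1 were level, at a difference of -0.03 ± 0.11.

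**Figure D5:**
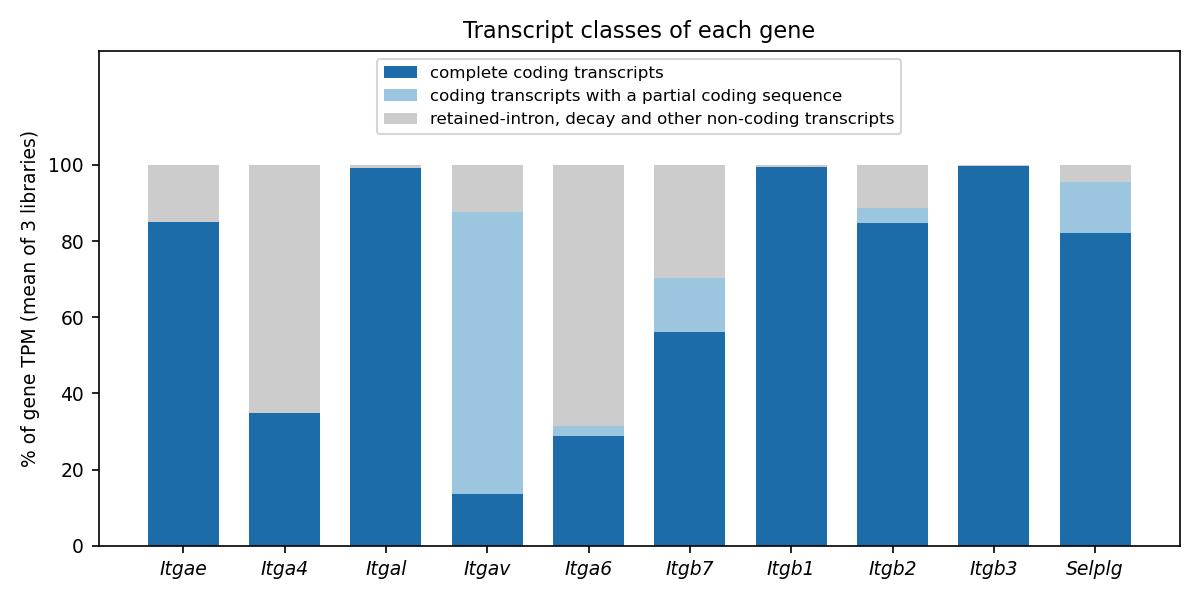
Mean share of the gene's TPM over 3 libraries, in percent, on complete coding transcripts, coding transcripts with a partial coding sequence, and transcripts of other biotypes. Complete coding transcripts take most of the TPM of Itgae, Itgal, the 4 beta chains and Selplg, and 34.9% for Itga4, 28.7% for Itga6 and 13.5% for Itgav.

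The remaining integrin chains were mostly low. Of 13 other alpha genes, 2 were at 1 TPM or more in every library: Itga2, a collagen-binding chain that pairs with β1, with 13.5, 6.80 and 9.33 TPM in libraries 1, 2 and 3, and Itga7, a laminin-binding partner of β1, with 3.41, 3.84 and 4.05 TPM. Itga2 was lowest in library 2, as Itgae was, and was called (adjusted p = 1.15e-09). Of 5 other beta genes only Itgb8 reached that level, and it too was called and lowest in library 2 (adjusted p = 5.01e-11). Itga1 averaged 1.17 ± 0.38 TPM, Itgb5 1.11 ± 0.22 and Itgb6 0.10 ± 0.13.

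The list for integrin activation from inside the cell held proteins that promote it and proteins that restrain it. Of its 22 genes, 18 were at 1 TPM or more in every library. The most abundant were Skap1, an adaptor that links the T cell receptor to integrin activation, at 441 ± 24.7 TPM, its binding partner Fyb at 429 ± 9.96 TPM, and Flna, the actin cross-linker filamin A that competes with talin for beta tails, at 261 ± 30.1 TPM. Fermt3, the blood cell kindlin, had 229.6, 204 and 206 TPM and Tln1, talin, had 99.5, 105 and 97.2 TPM in libraries 1, 2 and 3, whereas the other kindlins Fermt1 and Fermt2 were under 1 TPM. Of the 19 tested genes of the list 13 were called, 5 of them highest in library 1, 5 in library 2 and 3 in library 3, beside 45.7% called over all tested genes. In the adhesion complex list, 9 of 14 tested genes were called, 3 highest in each library, with Ilk at 122 ± 18.0, Actn4 at 111 ± 10.3 and Evl at 105 ± 17.9 TPM.

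Messenger RNA of ligands of these receptors was detected in part. Of 15 ligand genes 7 were at 1 TPM or more in every library, led by the LFA-1 ligands Icam1 at 73.2 ± 2.48 TPM and Icam2 at 68.1 ± 8.64 TPM, and by the laminin chain Lamc1 at 9.91 ± 0.53 TPM. Spp1, osteopontin, a ligand of αv and α4 integrins, had 3.90, 6.66 and 3.88 TPM in libraries 1, 2 and 3 and was called highest in library 2 (adjusted p = 4.38e-04). Cdh1, the ligand of αEβ7, stayed at or under 0.61 TPM and Madcam1, the ligand of α4β7, at or under 0.13 TPM. In this list 4 of 7 tested genes were called, and of the surface partners, mostly tetraspanins that associate with integrins, 8 of 12, beside 45.7% over all tested genes, and abundant genes were called more often. The most abundant of the partners were Cd53 at 1118 ± 10.4 TPM, Cd82 at 832 ± 83.3 TPM and Cd37 at 320 ± 16.3 TPM, and of these Cd82 was called.

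Next to Selplg, the other carriers and selectins included Spn (CD43) at 171 ± 17.6 TPM and Cd44 at 82.5 ± 9.03 TPM. Both were called (adjusted p = 1.73e-21 for Spn and 9.28e-15 for Cd44), with Spn lowest in library 3 and Cd44 lowest in library 2. In this list 4 of 5 tested genes were called, beside 45.7% over all tested genes.

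The enzymes that make PSGL-1 able to bind selectins were nearly all present, with 11 of 12 genes at 1 TPM or more in every library. Tpst2, which sulphates tyrosines, averaged 86.5 ± 8.35 TPM, the galactosyltransferase B4galt1 45.01 ± 2.04 TPM and the sialyltransferase St3gal1 23.2 ± 3.56 TPM. Fut7, the fucosyltransferase that completes the selectin-binding sugar in leukocytes, had 19.6, 11.7 and 14.1 TPM, and Gcnt1, the enzyme that starts the branched O-glycan on which it sits, had 14.2, 7.33 and 16.3 TPM, in libraries 1, 2 and 3. Both were called and lowest in library 2. St3gal6, a sialyltransferase, was highest in library 2, with 7.44, 25.1 and 14.7 TPM, and its 4.12-fold difference in normalised counts between libraries 2 and 1 was called (adjusted p = 6.42e-38). Of the 11 tested genes 5 were called, close to the 45.7% over all tested genes.

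The pattern over the 3 libraries of the 2 members with the largest chi-square was compared with 60 genes of these lists at 100 counts or more, by the root mean square difference of centred log2 values. Nearest to Itga4 were the adaptor Skap2 (0.047), paxillin Pxn, which binds the α4 tail (0.070), and the actin regulator Vasp (0.072). Nearest to Itgb1 were Flna (0.0075), the integrin-linked kinase Ilk (0.047) and Tpst2 (0.052). With 3 libraries such nearness is easily met: 59 of 9072 genes were as near to Itga4 as Skap2, and 6 of 9072 were as near to Itgb1 as Flna.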

How the data were processed

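The RNA was polyadenylated and fragmented by shearing, per the labels. Each library had an estimated count per gene and per transcript, with shared reads divided by a model, in the column layout of RSEM, per the file headers. These tables rest on mm10 and GENCODE M21, per the deposited descriptions. TPM was derived by the authors from each count and its effective length, as was the percent of gene TPM per transcript, per the file headers. The deposited posterior SD of a count, a signal in reads, gives the uncertainty of the assignment. A separate deposited table holds whole-number counts on GENCODE M4. The aligner, versions, read length and strand setting are, in the sources used here, not given.

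There was 1 group, so that the quasi-likelihood test of edgeR had no contrast. Estimated counts were rounded to whole numbers. The libraries were compared by a Poisson chi-square test of homogeneity for each of the 13970 genes that averaged at least 10 counts, with library sizes scaled by TMM (edgeR 4.0.16 in R 4.3.3) and a Benjamini-Hochberg adjusted p under 0.05. TMM factors were 0.995, 0.975 and 1.03. Reads are not independent molecules, so the test covers counting error only and its calls are generous. The test was checked on data simulated with counting noise only, which does not cover the division of shared reads by a model. Pairs were compared as log2(TPM + 0.1), which understates differences of low genes. Transcript shares are descriptions. The alternatives were DESeq2 1.42.0 size factors, total counts, no count filter, posterior variance added, whole-number counts, other pseudocounts, TPM of coding transcripts, CPM, and each library left out.

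The members and gene lists were chosen with earlier results of these data known. The text names all members, per list the 3 genes with the highest mean TPM and the called gene with the largest chi-square, other integrin chains at 1 TPM or more, and member transcripts averaging 5 percent or more. Tln1, Fermt1, Fermt2, Fermt3, Fut7, Gcnt1, Cdh1, Madcam1, Itgam, Itgax and Itgad were named for their role, after their values were seen. One gene that this rule names is not reported here.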

Additional observations from a re-analysis of the deposited data

How the results depend on the processing

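The number of genes called over the whole table was 6388, and 2157 of 10013 in the whole-number counts, and it ranged from 2978 to 4765 when 1 library was left out. Of the members, 8 were called, 7 in the whole-number counts and 6 or 7 with 1 library left out. Pair differences were on the log2 scale. Without a length adjustment (CPM) Itga4 minus Itgb7 was 0.45, Itga4 minus Itgb1 0.066, Itgav minus Itgb3 -0.057 and Itgb7 minus Itgb1 -0.39. On complete coding transcripts Itgav minus Itgb3 was -0.96 and Itgb7 minus Itgb1 -0.030. In the whole-number counts, which have no length adjustment, Itgav minus Itgb3 was -0.77 and Itgav minus Itgb8 -0.44. Lengths enter TPM by construction, and a further cause was not tested. The remaining pair values kept their direction under the other alternatives, with Itga4 minus Itgb1 between -0.36 and -0.17 when 1 library was left out. In the whole-number counts the library order of called members changed for Itgb7 and Selplg, which were lowest in library 2, for Itgb3, which was lowest in library 3, and for Itgae, which was highest in library 3. No paired analysis was possible because there was 1 group. Itgav and Itga6, the members not called, had at most 898 estimated counts in a library, and Itgb3 had between 702 and 993.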

Other observations

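The deposited whole-number counts, on GENCODE M4, kept a different part of each member. Over all genes they came to between 24.0% and 25.6% of the estimated counts in the 3 libraries. For Itgae the share was between 70.2% and 72.2%, and for Itgav between 15.4% and 16.6%. Itgb7 had between 44.8% and 51.8% and Selplg between 23.4% and 30.7%. Itgae had 1266, 731 and 1187 whole-number counts in libraries 1, 2 and 3, against 3350, 3269 and 2762 for Itgb7. Without a length adjustment, Itgae minus Itgb7 was -1.59 on the log2 scale in these counts and -2.18 in the estimated counts.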
